A study of Mus musculus with 24 samples.

Results

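The RNA of 33 genes for laminins and other matrix glycoproteins was followed in mouse kidney, out of 35413 genes in the summed table. The members were taken by name, as laminin chains, nidogens, proteoglycans, elastic-fibre proteins and matricellular proteins, with earlier results of these data known. They were grouped by role as 5 laminin alpha chains, 5 laminin beta and gamma chains, 4 linkers and heparan sulfate proteoglycans, 3 proteins of the Fraser complex and its partner nephronectin, 6 fibronectin and matricellular proteins, 6 elastic-fibre proteins and 4 leucine-rich or large proteoglycans. All 33 were found once in the annotation and all 33 passed the filter on low counts in every comparison.

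Laminins are trimers of an alpha, a beta and a gamma chain that polymerise into the sheet of a basement membrane, and nidogens, perlecan and agrin tie that sheet to the type IV collagen network and to cell receptors. In the kidney the mature glomerular and tubular basement membranes are built mainly from trimers with the chain encoded by Lama5, while fibronectin, tenascin, elastic-fibre proteins and small leucine-rich proteoglycans belong to the interstitium, the mesangium and vessel walls. Injury of tubules is known to be followed by deposition of interstitial matrix.

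The 24 libraries came from kidneys of 2 separate experiments. In the knockout experiment, a tamoxifen-inducible Cre driven by CAG (CAG-ERCre), a promoter active in most cell types, was combined with ENPP1 fl/fl alleles, and ENPP1 encodes an enzyme that splits extracellular ATP. Its groups were the tamoxifen-induced ENPP1 knockout carrying Cre on an adenine diet (n = 6), Cre-negative wild-type mice on the adenine diet (n = 6), and chow-fed controls (n = 4), for which the labels state no genotype. Dietary adenine is oxidised to a poorly soluble product that precipitates in tubules. In the antibody experiment all mice ate adenine and were injected into the peritoneum, at 50 mg/kg, with a monoclonal antibody against human ENPP1 (n = 4) or with a control IgG (n = 4). The diet lasted 14 days in both. The labels do not state strain, sex, age, tamoxifen in the control groups, or a human ENPP1 gene in mice given the antibody. Each library was taken as a separate mouse, which the labels do not state, so p-values measure the spread between these libraries.

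Reads assigned to annotated genes numbered 21049700 to 28209900 per library in the knockout experiment and 43880600 to 50557600 in the antibody experiment. Enpp1, as the check of the labels, stood at 21.6 to 24.7 CPM (median 22.4) in the libraries labelled knockout and at 20.9 to 24.9 CPM (median 21.3) in wild-type adenine libraries. These ranges overlap, with a log2 change of 0.05 ± 0.051 (SE; edgeR adjusted p = 0.466), whose sign turned with upper-quartile scaling (-0.02). The labels do not name the exons between the loxP sites, and reads summed over a gene can stay level when few exons are lost. The group is therefore called the libraries labelled knockout below, and every direction drawn from it rests on that label. In the antibody experiment Enpp1 spread from 2.62 to 17.4 CPM with the antibody and from 7.22 to 8.86 CPM with IgG. Its log2 change there was -0.003 ± 0.47 (SE; edgeR adjusted p = 0.997). Markers of kidney tubules were high in all groups. The 6 proximal tubule markers together reached 3532 to 6876 CPM in libraries labelled knockout, 1937 to 3325 CPM in wild-type adenine libraries and 8907 to 9174 CPM on chow, and 6189 to 8065 CPM with the antibody against 2139 to 3001 CPM with IgG. In bulk tissue fewer cells of a type and less RNA per cell cannot be told apart.

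Levels of different genes were compared in TPM, the authors' transcript abundance, which takes transcript length into account. On chow the highest members were Sparc, a collagen-binding matricellular protein, at 63.04 ± 0.886 TPM, and Bgn, the small proteoglycan biglycan, at 60.6 ± 2.44 TPM (SD, n = 4 each), a difference smaller than the SD of Bgn. Fbln5, the elastic-fibre organiser fibulin 5, and Npnt followed at 43.5 ± 1.83 and 38.02 ± 2.94 TPM. In wild-type adenine libraries the order was led by Agrn, the heparan sulfate proteoglycan agrin, at 255 ± 37.7 TPM, and Lama5 at 201 ± 14.4 TPM (SD, n = 6 each). The lowest member on chow was Vcan at 0.186 ± 0.173 TPM. All other levels below are normalised read counts (CPM, counts scaled to library size with TMM), which are comparable between the libraries of an experiment and not between the experiments, since these were scaled separately.

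Wild-type mice on the adenine diet were compared with the chow-fed controls, whose genotype is unstated, to ask how the diet changes the kidney's RNA. Basement-membrane genes moved in opposite directions, with Lama5 and Agrn up by 11.2-fold and 8.67-fold and Lamc3, Lama2 and Nid1 down. Of the 33 members, 14 were higher, 12 were lower and 7 did not pass (edgeR adjusted p under 0.05), at a background of 84.9% of all 16959 genes called, 44.0% higher and 40.9% lower. The member share called was thus near the background, and the median log2 change of the members was 0.04 against 0.07 for all genes tested.

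Among the laminin alpha chains 2 were higher and 3 lower. Lama5 stood at 734 to 799 CPM (median 764) in wild-type adenine libraries, against 67.2, 59.6, 78.3 and 67.9 CPM in chow libraries. No adenine library came near the chow range, and the log2 change was 3.48 ± 0.076 (SE; adjusted p = 9.99e-17). Lama1, an alpha chain of epithelial basement membranes best known from development, was at 20.8 to 23.01 CPM (median 22.7) in wild-type adenine libraries against 11.9, 12.9, 13.3 and 11.6 CPM on chow, also without overlap (0.84 ± 0.060). In the other direction, Lama2, the alpha chain of muscle and mesangial laminin, was at 6.31 to 9.84 CPM (median 7.99) in wild-type adenine libraries and at 21.5, 19.8, 29.4 and 23.1 CPM on chow. Every adenine library was below every chow library, a log2 change of -1.55 ± 0.11 (adjusted p = 1.28e-10). Lama4, typical of endothelial basement membranes, changed by -0.71 ± 0.13 without overlap, and Lama3, the alpha chain of epithelial anchoring laminins, by -0.47 ± 0.14 with overlapping groups. Lama3 did not pass under upper-quartile scaling (adjusted p = 0.103) or with protein-coding transcripts only (0.0547).

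**Figure D1:**
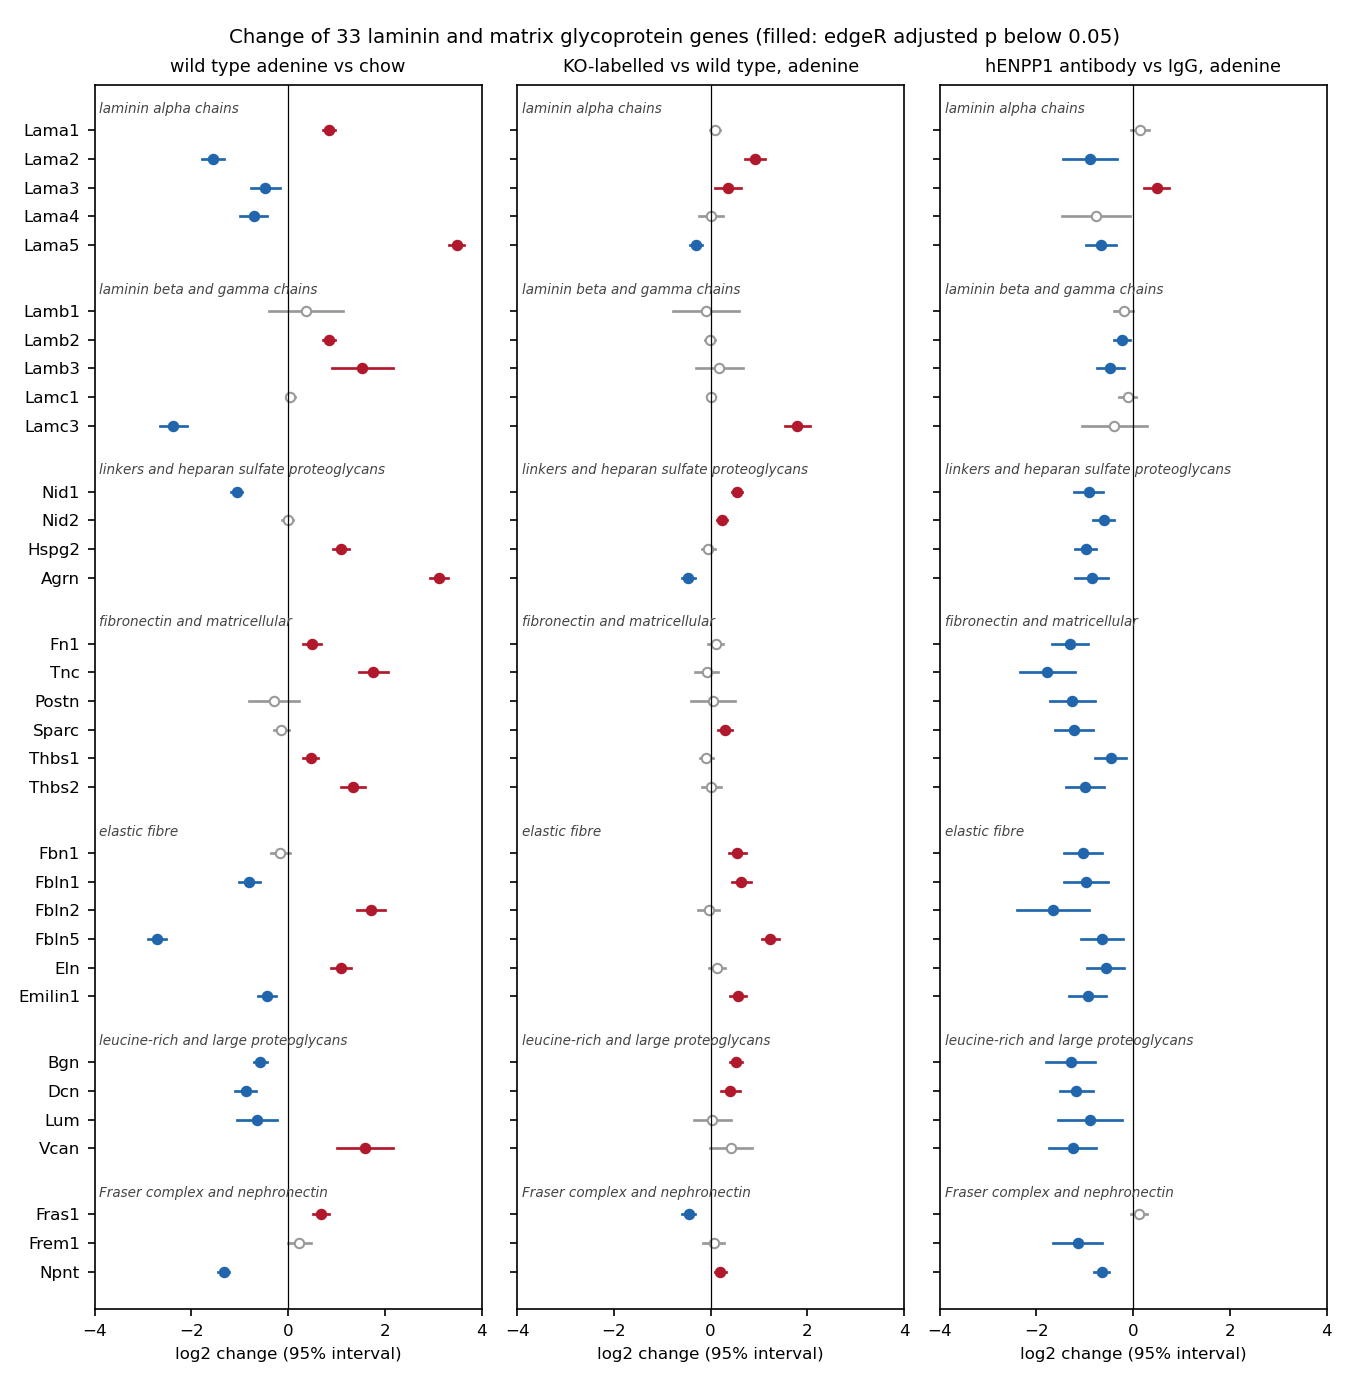
Log2 change with its 95% interval for the 33 genes, by role, in wild-type adenine against chow, in libraries labelled knockout against wild type on adenine, and in antibody against IgG; filled points passed edgeR's adjusted p threshold of 0.05 (red higher, blue lower) and open grey points did not. The first panel holds 14 red and 12 blue points, the second 13 and 3, and the third 1 and 26.

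Among the beta and gamma chains, Lamb2, the beta chain of the mature glomerular basement membrane, was at 102 to 115 CPM (median 106) in wild-type adenine libraries and at 60.05, 55.96, 63.3 and 59.04 CPM on chow (0.84 ± 0.059). Lamb3, which pairs with the product of Lama3, changed by 1.54 ± 0.30, and both were higher in every adenine library. Lamc3, a gamma chain of restricted expression, fell to 1.73 to 3.06 CPM (median 2.71) in wild-type adenine libraries, against 12.8, 12.4, 14.2 and 12.97 CPM on chow. The groups did not overlap, with a log2 change of -2.37 ± 0.13 (adjusted p = 3.48e-12). Lamc1, the gamma chain of most laminins, had 40.00 to 43.99 CPM (median 41.01) in wild-type adenine libraries and 41.9, 38.6, 40.02 and 40.1 CPM on chow, a log2 change of 0.04 ± 0.045 with a 95% interval of -0.05 to 0.14. It was called higher with upper-quartile scaling (0.27) and protein-coding transcripts only (0.19). With GC and length trends removed it was called lower (-0.31, adjusted p = 8.88e-07). Its sign also turned with the transcript-length offset, without a call (-0.11, adjusted p = 0.0896).

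Lamb1, the most common beta chain, ranged more widely within each group than the group means differed. It ranged over 53.6 to 152 CPM (median 98.6) in libraries labelled knockout, 30.1 to 159 CPM (median 111) in wild-type adenine libraries and 92.6, 54.7, 58.1 and 124 CPM on chow. A deposited transcript of 5778 bases with no entry in the annotation used moved against it, with a correlation of -0.98 between their deviations from the group means over the 16 libraries, which share their depth and the quantification. The annotated Lamb1 transcript has 5784 bases. In the antibody experiment the unannotated transcript stood at 0 CPM in all IgG libraries and at 0 to 9.38 CPM with the antibody. This pair of transcripts was picked for the most negative correlation among all members and unannotated transcripts within 1% in length. The sum of the 2 was far steadier, at 172.9 ± 7.21 CPM in libraries labelled knockout, 180.7 ± 4.13 CPM in wild-type adenine libraries and 147.7 ± 4.34 CPM on chow (SD, n = 6, 6 and 4). Lamb1 alone did not pass for adenine against chow (0.37 ± 0.37) but was called higher with the transcript-length offset (0.63, adjusted p = 0.0346). With the other transcript added it was called higher on adenine (0.29, adjusted p = 5.08e-06), an alternative chosen after the values were seen. Whether the 2 transcripts belong to the same gene was not tested.

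Of the linkers, Agrn was at 777 to 927 CPM (median 873) in wild-type adenine libraries and at 100.5, 94.7, 108 and 95.6 CPM on chow. The lowest adenine library lay far above the highest chow one, with a log2 change of 3.12 ± 0.085 (adjusted p = 5.87e-16). Hspg2, perlecan, was at 116 to 131 CPM (median 123) in wild-type adenine libraries against 60.1, 58.4, 55.3 and 57.97 CPM on chow (1.09 ± 0.079). Nid1, the linker nidogen 1, fell to 23.7 to 26.2 CPM (median 25.1) in wild-type adenine libraries, against 54.7, 47.3, 55.5 and 51.2 CPM on chow, a log2 change of -1.06 ± 0.054 without overlap. Its relative Nid2 did not pass, with a log2 change of -0.01 ± 0.059 (adjusted p = 0.858). It was called lower with GC and length trends removed (-0.37, adjusted p = 2.64e-06) and with the transcript-length offset (-0.22, adjusted p = 0.0441). With upper-quartile scaling (0.21, adjusted p = 0.00288) and protein-coding transcripts only (0.16, adjusted p = 0.0243) it was called higher.

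Lama5, Agrn and Hspg2 are rich in G and C, at 59.9%, 57.4% and 60.9% of the transcript with the most reads. With smooth GC and length trends removed from each library, an alternative chosen after the values were seen, their log2 changes on adenine were 2.52, 2.45 and -0.01, and with the transcript-length offset 2.24, 2.47 and 0.23. Hspg2 thus lost its call with GC and length trends removed (-0.0057 ± 0.074, SE; adjusted p = 0.945), while the directions of Lama5 and Agrn held. Of the Agrn reads, 61.1% to 62.7% in wild-type adenine libraries and 26.2% to 35.4% on chow lay on protein-coding transcripts. With protein-coding transcripts only, the log2 change of Agrn was 4.25.

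Of the 6 fibronectin and matricellular genes, 4 were higher and none was lower. Tnc, tenascin C, a glycoprotein of provisional and healing matrix, was at 32.9 to 49.02 CPM (median 42.7) in wild-type adenine libraries, against 14.5, 12.5, 10.6 and 11.2 CPM on chow (1.76 ± 0.14, adjusted p = 8.24e-10). Fn1, fibronectin, was at 61.6 to 82.9 CPM (median 67.05) in wild-type adenine libraries against 49.1, 48.8, 54.6 and 49.1 CPM on chow (0.49 ± 0.088). The thrombospondins Thbs2 and Thbs1, which regulate matrix assembly and TGF-beta activation, changed by 1.34 ± 0.12 and 0.47 ± 0.073, and in all 4 genes every adenine library was above every chow library. Postn, periostin, and Sparc had log2 changes of -0.29 ± 0.24 and -0.14 ± 0.074 that did not pass. Postn was called lower with the replicate block (-0.48, adjusted p = 0.0424). Sparc was called lower with the transcript-length offset (-0.17, adjusted p = 0.0431) and without wild-type adenine library 2 (adjusted p = 0.0214), and its sign turned with upper-quartile scaling (0.082) and with GC and length trends removed (0.061). Of the Fn1 reads, 50.8% to 63.4% in wild-type adenine libraries and 71.5% to 83.7% on chow lay on a single transcript annotated as a retained intron, and with protein-coding transcripts only the log2 change of Fn1 was 1.58.

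The elastic-fibre genes split, with Fbln2 and Eln higher and Fbln5, Fbln1 and Emilin1 lower. Fbln5 fell to 20.04 to 25.2 CPM (median 24.4) in wild-type adenine libraries, against 150.5, 158, 152 and 154 CPM on chow. This was the largest fall of the 33, at a log2 change of -2.71 ± 0.089 (adjusted p = 3.59e-15). Fbln2, fibulin 2, rose to 7.96 to 14.2 CPM (median 12.4) in wild-type adenine libraries, against 3.31, 3.41, 3.76 and 3.90 CPM on chow (1.71 ± 0.14), and Eln, elastin itself, changed by 1.10 ± 0.10. Of the Fbln2 reads, 51.2% to 59.0% in wild-type adenine libraries and 68.8% to 77.9% on chow lay on a retained-intron transcript. Fbln1 and Emilin1, an elastin-associated glycoprotein, changed by -0.80 ± 0.10 and -0.43 ± 0.089. Fbn1, the microfibril protein fibrillin 1, had a log2 change of -0.16 ± 0.10, which did not pass. It was called lower with GC and length trends removed (-0.49, adjusted p = 7.3e-05) and without wild-type adenine library 2 (adjusted p = 0.0314), and its sign turned with upper-quartile scaling (0.066). Among proteoglycans, Vcan, the hyaluronan-binding versican, was at 4.65 to 6.21 CPM (median 5.63) in wild-type adenine libraries against 1.63, 1.57, 2.08 and 2.13 CPM on chow (1.59 ± 0.28). The small leucine-rich Bgn, Dcn and Lum, which bind collagen fibrils, were lower, with changes of -0.57 ± 0.064, -0.88 ± 0.10 and -0.64 ± 0.20. Lum did not pass under upper-quartile scaling (adjusted p = 0.0653). Mean TPM, not scaled with TMM, was not lower on adenine for Bgn (66.3 in wild-type adenine libraries, 60.65 on chow) and Dcn (28.5, 28.16). Nor was it for Lum (0.83, 0.72), Fbln1 (2.35, 2.12), Emilin1 (17.5, 16) and Lama3 (2.56, 2.11). Lama2, Lama4, Lamc3, Nid1, Fbln5 and Npnt were lower in both measures, but in TPM only Lamc3 and Fbln5 did not overlap. The TPM of Lama4 was 2.94 ± 0.861 in wild-type adenine libraries and 3.12 ± 1.08 on chow (SD, n = 6 and 4). Of the members that did not pass, Lamb1, Lamc1, Nid2, Sparc, Fbn1 and Frem1 had higher TPM in every wild-type adenine library than on chow. Mean TPM of Sparc was 106.5 in wild-type adenine libraries and 63.04 on chow, while the TPM ranges of Postn overlapped. TMM factors were 1.06 to 1.24 in wild-type adenine libraries and 0.717 to 0.741 on chow, and their part was not tested. Of the Fraser complex, Fras1 was at 36.7 to 47.6 CPM (median 42.8) in wild-type adenine libraries and at 26.3, 24.8, 29.04 and 26.1 CPM on chow, without overlap (0.68 ± 0.075), and Frem1 did not pass (0.24 ± 0.12). Frem1 was called higher with upper-quartile scaling (0.46, adjusted p = 0.00205), the transcript-length offset (0.30, adjusted p = 0.0341), protein-coding transcripts only (0.37, adjusted p = 0.00896) and without wild-type adenine library 2 (adjusted p = 0.0454). Its sign turned with GC and length trends removed (-0.034).

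The genes with the largest rise and the largest fall are shown with the 250 bases before their RefSeq start sites, to set their base composition side by side. Capitals mark GC boxes (GGGCGG, on either strand), overlapping matches included. Lama5 lies at chr2:180225860-180226109 (GRCm38.p6, minus strand) and has 72.4% G and C and 4 GC boxes, and Fbln5 lies at chr12:101818485-101818734 (minus strand) with 49.6% and none.
Lama5: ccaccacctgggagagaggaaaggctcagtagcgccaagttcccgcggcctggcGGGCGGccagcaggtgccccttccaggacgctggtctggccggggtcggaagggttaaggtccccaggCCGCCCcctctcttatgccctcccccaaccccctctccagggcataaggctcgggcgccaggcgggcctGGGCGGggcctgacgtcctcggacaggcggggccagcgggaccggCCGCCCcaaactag
Fbln5: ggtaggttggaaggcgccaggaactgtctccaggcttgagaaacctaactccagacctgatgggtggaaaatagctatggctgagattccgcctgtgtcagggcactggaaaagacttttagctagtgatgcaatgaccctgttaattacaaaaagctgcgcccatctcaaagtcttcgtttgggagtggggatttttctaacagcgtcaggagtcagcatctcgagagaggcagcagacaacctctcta
A GC box was present in 6 of the 12 members whose RefSeq start lies within 50 bases of the start of their coding transcript with the most reads, and in 32.7% of all 32851 promoters of the table. AP-1 sites (TGANTCA) were in none of the 12 members and in 6.7% of all promoters, and TATA boxes (TATAAA) in 2 and in 12.4%. These are matches of letters and not sites of binding. The remaining members had no such start within that distance and were not counted.

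Beside these changes, markers of other cells moved on adenine. Of 8 endothelial markers 8 were lower (summed level 136.1 to 203.0 CPM in wild-type adenine libraries and 507.6 to 577.4 CPM on chow), and of 6 podocyte markers 5 were lower (132.3 to 184.1 CPM in wild-type adenine libraries and 529.3 to 555.9 CPM on chow). Of 10 fibroblast and mural cell markers 5 were higher and 5 lower, their sum being 477.6 to 708.2 CPM in wild-type adenine libraries and 315.5 to 326.4 CPM on chow. Of 5 mesangial markers 3 were higher and 1 lower (94.54 to 121.5 CPM in wild-type adenine libraries and 91.27 to 97.6 CPM on chow). All 6 injured-tubule markers were higher (935.8 to 1295 CPM in wild-type adenine libraries and 167.5 to 197.3 CPM on chow), as were 5 of 6 macrophage markers (248.3 to 385.2 CPM in wild-type adenine libraries and 126.6 to 138.9 CPM on chow). Lower were all 5 red blood cell markers (12.50 to 35.67 CPM in wild-type adenine libraries and 1072 to 1296 CPM on chow), all 5 urothelial, all 4 collecting duct and all 6 proximal tubule markers. None of these markers was at 0 in all libraries of a group, and their part in the changes of the members was not tested. Retained-intron transcripts took 7.57% to 8.60% of reads in wild-type adenine libraries and 3.37% to 3.82% on chow, and their part was not tested either.

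Within the adenine diet, libraries labelled knockout were set against the wild type. Of the 33 members 13 were higher, 3 lower and 17 did not pass, at a background of 46.4% called over all genes, 25.1% higher and 21.3% lower. The share called in both directions together was near this background. The median log2 change was 0.10 in the members and -0.02 over all genes. The members furthest apart were Lamc3 and Fbln5, the pair with the largest falls on adenine, which were higher in libraries labelled knockout. Both comparisons share the wild-type adenine libraries, so opposite signs in the 2 are not independent of each other.

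Lamc3 was at 7.77 to 9.48 CPM (median 8.86) in libraries labelled knockout, against 1.73 to 3.06 CPM (median 2.71) in wild-type adenine libraries. The groups lay far apart, with a log2 change of 1.79 ± 0.12 (SE; adjusted p = 1.22e-08). Lama2 was at 14.2 to 15.9 CPM (median 14.97) in libraries labelled knockout and 6.31 to 9.84 CPM (median 7.99) in wild-type adenine libraries, again without overlap (0.91 ± 0.10, adjusted p = 1.19e-06). Nid1 was at 33.8 to 40.4 CPM (median 36.1) in libraries labelled knockout against 23.7 to 26.2 CPM (median 25.1) in wild-type adenine libraries (0.55 ± 0.049) and Nid2 changed by 0.23 ± 0.051, a call lost with protein-coding transcripts only (adjusted p = 0.0798). Lama3, with overlapping groups, changed by 0.35 ± 0.13. Its call was lost without library 1 or 2 labelled knockout or wild-type adenine library 1 or 2 (adjusted p from 0.0505 to 0.0844), with upper-quartile scaling, with the transcript-length offset and with protein-coding transcripts only.

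Agrn, Fras1 and Lama5 (3 basement-membrane genes) were lower in libraries labelled knockout. Lama5 was at 578 to 661 CPM (median 615) in these libraries, against 734 to 799 CPM (median 764) in wild-type adenine libraries (-0.31 ± 0.058, adjusted p = 0.000291). Agrn was at 559.9 to 712 CPM (median 634) in libraries labelled knockout and 777 to 927 CPM (median 873) in wild-type adenine libraries (-0.46 ± 0.066, adjusted p = 2.11e-05). Fras1, a large protein that anchors epithelia to the mesenchyme, was at 28.8 to 33.5 CPM (median 30.96) in libraries labelled knockout and 36.7 to 47.6 CPM (median 42.8) in wild-type adenine libraries (-0.45 ± 0.065, adjusted p = 1.85e-05). In all 3 every library labelled knockout was below every wild-type adenine library. With the transcript-length offset 5 members were lower, Lamb2 (-0.15, adjusted p = 0.0266) and Lamc1 (-0.14, adjusted p = 0.0387) among them.

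**Figure D2:**
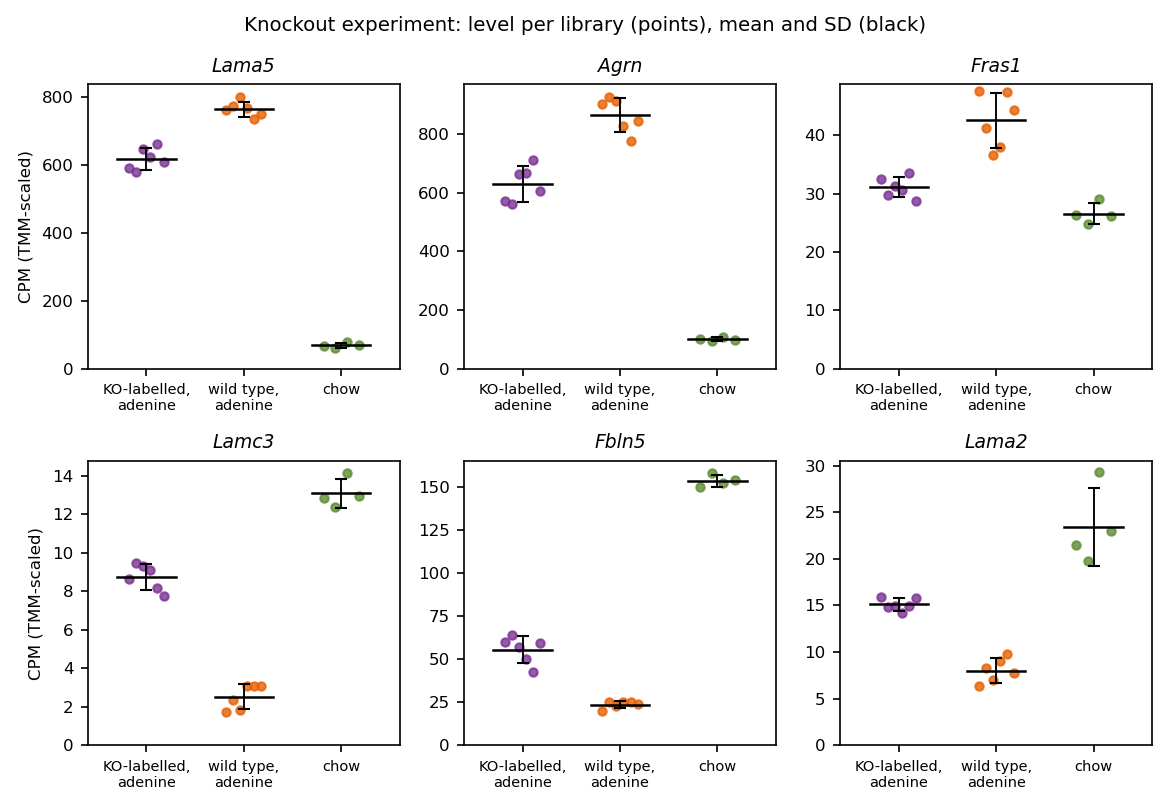
CPM per library of 6 basement-membrane and elastic-fibre genes in libraries labelled knockout on adenine, wild type on adenine and chow; points are libraries, the black line is the mean and the bar 1 SD. Lama5 and Agrn are highest in wild-type adenine libraries, where Lamc3, Fbln5 and Lama2 are lowest.

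Of the elastic-fibre genes 4 of 6 were higher in libraries labelled knockout and none was lower. Fbln5 was at 42.3 to 63.8 CPM (median 58.4) in libraries labelled knockout, against 20.04 to 25.2 CPM (median 24.4) in wild-type adenine libraries (1.23 ± 0.082, adjusted p = 9.71e-09). Fbln1, Emilin1 and Fbn1 changed by 0.63 ± 0.092, 0.56 ± 0.079 and 0.55 ± 0.084, none of them with overlapping groups. Bgn was at 158 to 191 CPM (median 187) in libraries labelled knockout and 119 to 145 CPM (median 124) in wild-type adenine libraries (0.52 ± 0.058), and Dcn, decorin, changed by 0.41 ± 0.093. Of the matricellular genes Sparc alone passed (0.29 ± 0.066, with overlapping groups). Tnc, Fn1, Postn, Thbs1 and Thbs2 had log2 changes between -0.09 and 0.10, and Fn1 was called with protein-coding transcripts only (0.40, adjusted p = 0.0298). Npnt, an integrin ligand needed for outgrowth of the kidney bud in mice, changed by 0.20 ± 0.052 with overlapping groups. The 17 members that did not pass had log2 changes from -0.10 to 0.42. The largest was that of Vcan (0.42 ± 0.21), which was called without library 2 labelled knockout (0.55, adjusted p = 0.0200).

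Markers of several cell types were also higher in libraries labelled knockout. All 8 endothelial markers were called higher, with a sum of 206.1 to 323.5 CPM in libraries labelled knockout and 136.1 to 203.0 CPM in wild-type adenine libraries. The same held for 6 of 6 podocyte markers (223.4 to 417.1 CPM in libraries labelled knockout and 132.3 to 184.1 CPM in wild-type adenine libraries) and 6 of 6 proximal tubule markers. Of 10 fibroblast and mural cell markers 3 were higher and 2 lower (565.0 to 815.9 CPM in libraries labelled knockout and 477.6 to 708.2 CPM in wild-type adenine libraries). Of 5 mesangial markers 2 were higher and none lower (107.5 to 123.7 CPM in libraries labelled knockout and 94.54 to 121.5 CPM in wild-type adenine libraries). The 5 red blood cell markers summed to 204.3 to 491.8 CPM in libraries labelled knockout and 12.50 to 35.67 CPM in wild-type adenine libraries, without overlap, and 1072 to 1296 CPM on chow. Retained-intron transcripts took 6.76% to 7.37% of reads in libraries labelled knockout and 7.57% to 8.60% in wild-type adenine libraries, without overlap. The part of these markers and transcripts in the members' changes was not tested.

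Against chow, the libraries labelled knockout had 17 members higher and 8 lower, at a background of 80.1% of genes called, 40.2% higher and 39.9% lower. Chow libraries are shared with the comparison above, so the values are only set side by side. Lama5 differed from chow by 3.18 ± 0.074 in libraries labelled knockout and by 3.48 ± 0.076 in the wild type, and Agrn by 2.66 ± 0.083 in libraries labelled knockout and 3.12 ± 0.085 in the wild type. For Fbln5 the log2 changes from chow were -1.47 ± 0.086 in libraries labelled knockout and -2.71 ± 0.089 in the wild type, in the same pair of comparisons for Lamc3 -0.58 ± 0.12 and -2.37 ± 0.13, for Lama2 -0.63 ± 0.11 and -1.55 ± 0.11, and for Nid1 -0.51 ± 0.054 and -1.06 ± 0.054. Over the 33 members, the mean CPM of libraries labelled knockout lay between the means of wild-type adenine and chow libraries in 21, above both in 12 and below both in 0. This places every mean, called or not, and the share over all genes was not counted. It therefore shows nothing particular to the members. The mean of Vcan was above both, with log2 changes from chow of 2.02 ± 0.28 in libraries labelled knockout and 1.59 ± 0.28 in the wild type.

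The make-up of the laminin chains depended on how length is counted. The Lama5 share of the summed TPM of the 5 alpha chains was 90.3% ± 0.622 in libraries labelled knockout, 94.2% ± 0.548 in wild-type adenine libraries (SD, n = 6 each) and 69.9% ± 1.02 on chow (SD, n = 4). By reads per kilobase of transcript these mean shares were 86.6%, 90.95% and 40.5%. The TPM share of Lama2 was 2.12% ± 0.163 in libraries labelled knockout, 1.12% ± 0.294 in wild-type adenine libraries and 9.56% ± 2.00 on chow, and that of Lama4 was 2.02%, 1.37% and 9.63%. Among the gamma chains Lamc3 held 8.36% ± 0.692 in libraries labelled knockout, 2.29% ± 0.568 in wild-type adenine libraries and 10.5% ± 1.13 on chow. The ranges of libraries labelled knockout and wild-type adenine libraries did not overlap for the shares of Lama5, Lama2 and Lamc3.

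**Figure D3:**
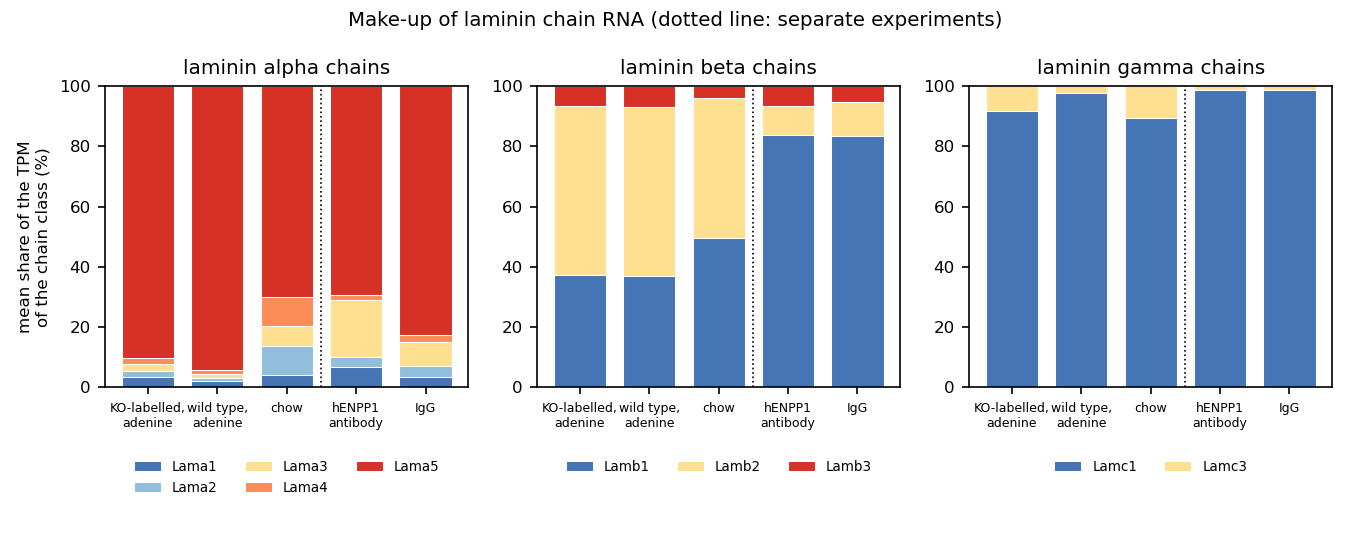
Mean share (%) of each chain in the summed TPM of the alpha, beta and gamma laminin chains, in libraries labelled knockout, wild type on adenine, chow, antibody and IgG; the dotted line parts the experiments. Lama5 takes 90.3%, 94.2%, 69.9%, 69.3% and 82.5% of the alpha chains in that order.

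In the antibody experiment, where kidneys on adenine with the antibody were set against those with IgG, the fibronectin, matricellular, elastic-fibre and proteoglycan genes were all lower. Of the 33 members 26 were lower, 1 was higher and 6 did not pass, at a background of 55.3% of 16404 genes called, 28.0% lower and 27.2% higher. The median log2 change was -0.89 in the members and -0.04 over all genes tested. All 6 fibronectin and matricellular genes, all 6 elastic-fibre genes, all 4 leucine-rich and large proteoglycans and all 4 linkers were lower, against 4 of the 10 laminin chains. Across the settings tried, including each library left out, 22 to 29 members were lower.

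The largest fall was that of Tnc, at 12.03, 6.94, 9.57 and 8.37 CPM with the antibody and 19.8, 48.4, 31.9 and 26.01 CPM with IgG. The groups do not overlap, and the log2 change was -1.77 ± 0.26 (SE; adjusted p = 0.000264). Fn1 was at 29.3, 22.3, 27.7 and 19.9 CPM with the antibody, against 49.2, 83.6, 54.9 and 56.6 CPM with IgG (-1.30 ± 0.17, adjusted p = 0.000158). Sparc was at 93.4, 61.97, 83.8 and 69.1 CPM with the antibody and 160.5, 247, 173 and 136 CPM with IgG (-1.22 ± 0.18). IgG library 2 was the highest of its group in all 3 genes. Postn, Thbs2 and Thbs1 changed by -1.26 ± 0.21, -0.99 ± 0.18 and -0.46 ± 0.15, and Thbs1 lost its call without antibody library 3 or 4 or IgG library 2 or 4 (adjusted p from 0.0510 to 0.0682) and with the replicate block (0.0575).

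**Figure D4:**
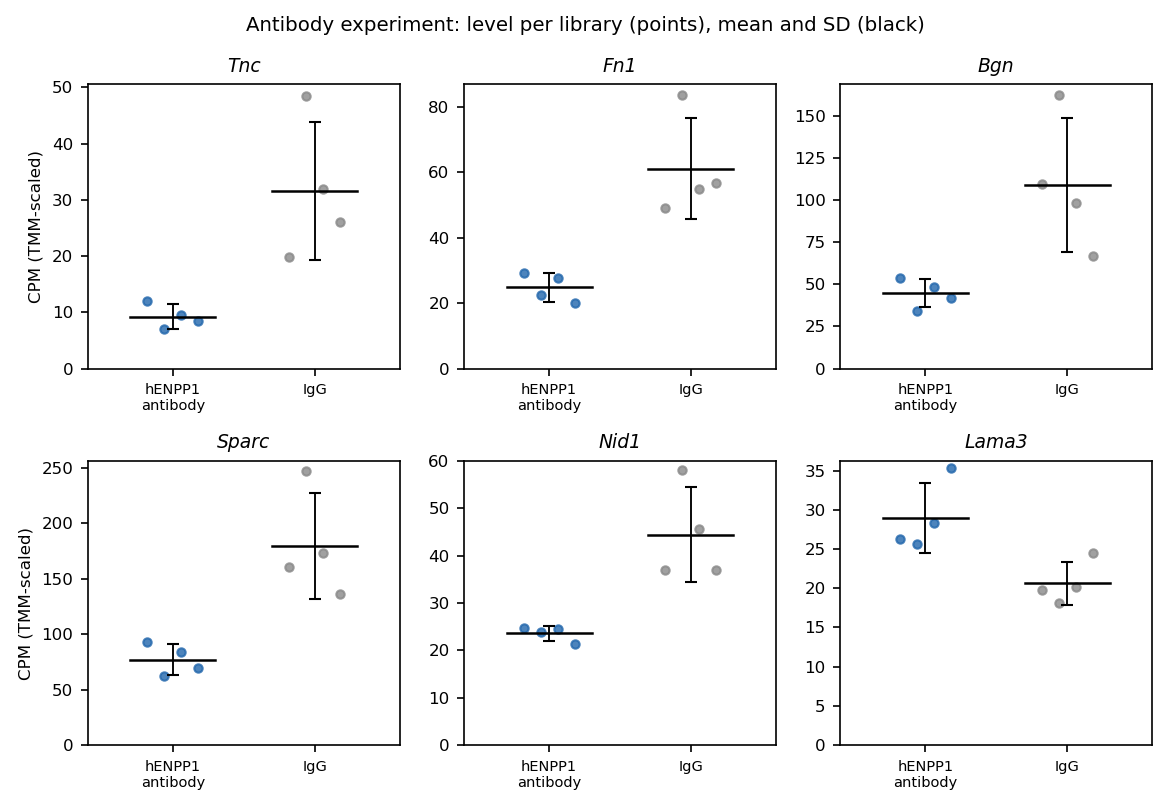
CPM per library of 6 members with the antibody and with IgG, both on adenine; points are libraries, the black line is the mean and the bar 1 SD. The antibody libraries lie below all IgG libraries for Tnc, Fn1, Bgn, Sparc and Nid1 and above them for Lama3.

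The proteoglycan Bgn was at 53.7, 34.5, 48.6 and 41.9 CPM with the antibody and 109.5, 162, 98.6 and 66.7 CPM with IgG (-1.29 ± 0.23, adjusted p = 0.000883). Dcn was at 36.8, 24.2, 29.4 and 26.04 CPM with the antibody and 61.2, 79.9, 72.00 and 50.4 CPM with IgG (-1.18 ± 0.16). Vcan and Lum changed by -1.25 ± 0.22 and -0.89 ± 0.30, the groups of Lum overlapping. Fbln2 had the largest fall of the elastic-fibre genes, at 2.03, 1.28, 2.02 and 0.956 CPM with the antibody against 2.74, 6.77, 3.47 and 6.88 CPM with IgG (-1.66 ± 0.34). Its values spread widely within both groups, and the 95% interval of the change was -2.41 to -0.91. Of the Fbln2 reads, 61.0% to 69.1% with the antibody and 62.25% to 73.9% with IgG lay on a retained-intron transcript. Fbn1, Fbln1 and Emilin1 changed by -1.04 ± 0.18, -0.98 ± 0.21 and -0.94 ± 0.17, and Fbln5 and Eln by -0.65 ± 0.19 and -0.57 ± 0.17. The call of Lum was lost without antibody library 2 or 3 or IgG library 2 or 3 (adjusted p from 0.0677 to 0.0862) and with the replicate block (0.0753), that of Fbln5 without antibody library 2 (0.0511) and that of Eln without IgG library 2 (0.0640) or with the transcript-length offset (0.0567).

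Among basement-membrane genes, Nid1 was at 24.8, 23.8, 24.6 and 21.3 CPM with the antibody and 37.1, 58.2, 45.7 and 36.95 CPM with IgG (-0.92 ± 0.14, adjusted p = 0.000303). Hspg2 was at 13.1, 12.1, 13.3 and 10.4 CPM with the antibody and 22.1, 27.4, 22.3 and 24.9 CPM with IgG (-0.98 ± 0.10), and Agrn at 168, 134, 126 and 104 CPM with the antibody and 199, 283, 213 and 269 CPM with IgG (-0.86 ± 0.15). In each of these linkers every antibody library was below every IgG library. Nid2 changed by -0.61 ± 0.10. Lama5 was at 71.1, 64.4, 55.8 and 45.00 CPM with the antibody and 85.5, 102, 77.9 and 109 CPM with IgG (-0.66 ± 0.14), also without overlap. Lama3 alone was higher, at 26.2, 25.6, 28.4 and 35.3 CPM with the antibody and 19.8, 18.1, 20.2 and 24.5 CPM with IgG (0.49 ± 0.12, adjusted p = 0.00548), without overlap. The TPM share of Lama3 among the alpha chains was 18.9% ± 4.35 with the antibody and 8.13% ± 1.201 with IgG, and that of Lama5 69.3% ± 4.94 with the antibody and 82.5% ± 1.27 with IgG (SD, n = 4 each). By reads per kilobase the mean share of Lama3 was 41.8% with the antibody and 26.1% with IgG, and that of Lama5 41.5% with the antibody and 57.2% with IgG.

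Of the other laminin chains, Lama2, Lamb3 and Lamb2 were lower, with log2 changes of -0.90 ± 0.25, -0.47 ± 0.13 and -0.23 ± 0.076. The sign of Lamb3 turned with the transcript-length offset (0.29), and the call of Lamb2 was lost without antibody library 2 or 3 or IgG library 2 or 3 (adjusted p from 0.0605 to 0.0885), with the transcript-length offset (0.136), with the replicate block (0.0608) and with GC and length trends removed (-0.045, adjusted p = 0.649). Lama1, Lama4, Lamb1, Lamc1 and Lamc3 did not pass, with log2 changes from -0.77 for Lama4 to 0.14 for Lama1. Lamc1 was called lower with the transcript-length offset (-0.59, adjusted p = 0.000253) and with upper-quartile scaling (-0.27, adjusted p = 0.0152). Lama4 was called lower with upper-quartile scaling (-0.93, adjusted p = 0.0284) and DESeq2 (-0.75, adjusted p = 0.0390), and Lamb1 with upper-quartile scaling (-0.35, adjusted p = 0.00717) and protein-coding transcripts only (-0.28, adjusted p = 0.0277). Lama1 was called higher with GC and length trends removed (0.22, adjusted p = 0.0459), and its sign turned with upper-quartile scaling (-0.020). Without IgG library 1, Lama4 (-1.002, adjusted p = 0.00481) and Lamb1 (-0.26, adjusted p = 0.0223) were called lower, and without IgG library 4 so was Lamc3 (-0.63, adjusted p = 0.0326). Frem1, the partner of Fras1, was at 2.77, 2.18, 3.54 and 3.23 CPM with the antibody and 5.12, 9.37, 6.70 and 4.74 CPM with IgG (-1.15 ± 0.23), while Fras1 did not pass (0.12 ± 0.077, adjusted p = 0.219).

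Markers of other cells moved with these changes. The 10 fibroblast and mural cell markers summed to 164.9 to 234.3 CPM with the antibody and 377.3 to 655.7 CPM with IgG, 7 of them lower and none higher. The 5 mesangial markers summed to 40.58 to 49.24 CPM with the antibody and 81.24 to 118.5 CPM with IgG, 4 of them lower, and the 6 macrophage markers to 114.7 to 169.5 CPM with the antibody and 258.5 to 508.1 CPM with IgG, all 6 lower. All 6 proximal tubule markers were higher, and 5 of 6 injured-tubule markers were lower (1580 to 2291 CPM with the antibody and 2280 to 2765 CPM with IgG). Of 8 endothelial markers 2 were lower and none higher (94.42 to 105.6 CPM with the antibody and 115 to 138.8 CPM with IgG). Of 6 podocyte markers 2 were higher and 1 lower (58.34 to 77.29 CPM with the antibody and 41.64 to 65.88 CPM with IgG). Retained-intron transcripts took 3.02% to 3.34% of reads with the antibody and 4.03% to 4.84% with IgG, without overlap. None of these markers was at 0 in all libraries of a group, and the part of markers and transcripts in the members' changes was not tested.

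The knockout and antibody effects were compared directly in the 20 adenine libraries, as the difference between the change in libraries labelled knockout and the change with the antibody. It was positive for 21 members and negative for 1, at a background of 37.9% of 17113 genes called, 16.3% positive and 21.6% negative. The largest difference was that of Lamc3 at 2.11 ± 0.31 (SE; adjusted p = 3.31e-05), whose antibody effect did not itself pass. Fbln5 and Lama2, higher in libraries labelled knockout and lower with the antibody, differed by 1.80 ± 0.21 and 1.74 ± 0.25. So did Bgn (1.74 ± 0.22), Sparc (1.44 ± 0.18) and Nid1 (1.38 ± 0.13). Tnc and Fn1 differed by 1.62 ± 0.27 and 1.33 ± 0.18, with no call in libraries labelled knockout. Fras1 was the negative one (-0.65 ± 0.11, adjusted p = 0.000117). For Lama5 and Agrn, lower in both experiments, the differences were 0.28 ± 0.14 and 0.33 ± 0.16, with 95% intervals of -0.01 to 0.57 and -0.01 to 0.66, which did not pass. Both were called with upper-quartile scaling, the transcript-length offset or without antibody library 1, and without IgG library 3 for Lama5 or IgG library 1 for Agrn. The adenine controls of the experiments also stood at different mean TPM, which is not scaled with TMM. Lama5 was at 200.6 in wild-type adenine libraries and 32.97 with IgG, and Agrn at 254.6 in wild-type adenine libraries and 85.35 with IgG. The experiments differ in mice and depth as well as in the agent, and these cannot be told apart.

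Nephronectin RNA was lower with adenine than with chow, and lower with the antibody than with IgG. Npnt stood at 94.3 to 118 CPM (median 104) in wild-type adenine libraries, against 281, 264, 248 and 262 CPM on chow (-1.33 ± 0.057, adjusted p = 7.76e-14), and at 124, 126, 114 and 107 CPM with the antibody, against 177, 194, 188 and 178 CPM with IgG (-0.65 ± 0.071, adjusted p = 7.45e-05). Neither pair of groups overlapped. Of the 2 Npnt transcripts compared, 1 has a coding exon of 87 bases, or 29 codons, that the other lacks. It lies at chr3:132891402-132891488 (GRCm38, minus strand, GENCODE). Whether the division of reads between the 2 transcripts rests on this exon was not tested. The sequences are shown with the exon in capitals between 15 bases of each neighbour.
Npnt with the exon: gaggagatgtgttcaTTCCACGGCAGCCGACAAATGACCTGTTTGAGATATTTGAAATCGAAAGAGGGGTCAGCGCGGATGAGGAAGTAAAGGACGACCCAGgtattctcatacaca
Npnt without the exon: gaggagatgtgttcagtattctcatacaca
The share of Npnt reads on the transcript without the exon was 7.15%, 0%, 20.5%, 0%, 0% and 22.2% in libraries labelled knockout, 13.6%, 29.7%, 25.2%, 17.6%, 0% and 0% in wild-type adenine libraries and 51.5%, 38.2%, 54.2% and 44.0% on chow. No adenine library of the knockout experiment reached the chow range. With the antibody it was listed at 0 or below 0.01% in all 4 libraries, against 21.8% to 47.5% with IgG. The difference was -32.6 percentage points for wild-type adenine against chow (exact two-sided permutation test, p = 0.00952) and -32.3 points for antibody against IgG (p = 0.0286, the smallest p that 4 against 4 libraries allow). After adjustment over 159 tests of 53 transcripts, 0 passed, with adjusted p-values of 0.0561 and 0.0891. The transcripts share nearly all of their sequence, and a listed 0 can be an outcome of the authors' division of shared reads, which was not tested. This pair was chosen after its values were seen.

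**Figure D5:**
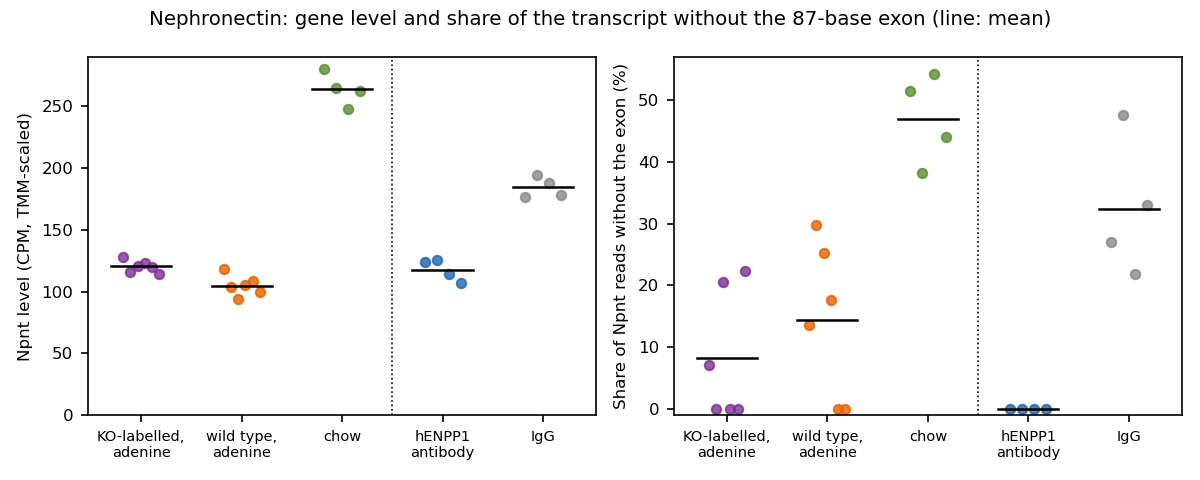
Npnt level (CPM) and the share (%) of its reads on the transcript without the 87-base exon, per library in all 5 groups; lines are means and the dotted line parts the experiments. The share is 38.2% to 54.2% on chow and near 0 in all 4 antibody libraries.

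No transcript share passed after adjustment, also where the groups did not overlap. Of the 53 transcripts tested in each comparison, such separation was found for 22 in wild-type adenine against chow, 3 in libraries labelled knockout against wild type and 15 in antibody against IgG. Their adjusted p-values were 0.0561, 0.0561 and 0.0891, so the lack of calls does not show that the shares were alike. Transcripts of the same gene divide its reads and are not separate cases. The share over all transcripts was not counted, so these numbers show nothing particular to the members. Of Lama3 reads, Lama3-201 held 42.4% to 49.7% in libraries labelled knockout, 35.5% to 47.5% in wild-type adenine libraries and 21.7% to 31.4% on chow. For Lama2, Lama2-201 held 57.8% to 66.0% in libraries labelled knockout and 33.3% to 41.0% in wild-type adenine libraries (exact permutation p = 0.00216, adjusted p = 0.0561), without overlap.

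Another list of 50 related matrix genes was counted beside the members. On adenine against chow 20 of 48 tested were higher and 24 lower, beside 44.0% and 40.9% of all genes. Ltbp2, a microfibril-associated protein of the latent TGF-beta binding family, was at 52.5 ± 14.2 CPM in wild-type adenine libraries and 0.586 ± 0.122 CPM on chow, a log2 change of 6.47 ± 0.30. Spp1, osteopontin, which binds mineral and integrins, was at 17060 ± 2452 CPM in wild-type adenine libraries and 1712 ± 71.3 CPM on chow (3.32 ± 0.13), and Fbn2, fibrillin 2, changed by 3.26 ± 0.27. The largest falls were those of Ogn, the small proteoglycan osteoglycin (-3.43 ± 0.11), Mmrn1, multimerin 1 of endothelium and platelets (-3.22 ± 0.29), and Vwa1, a basement-membrane protein (-3.16 ± 0.12). In libraries labelled knockout against wild type 19 were higher and 7 lower, beside 25.1% and 21.3% of all genes, with Prelp (1.88 ± 0.12), Ogn (1.53 ± 0.10) and Vwa1 (1.38 ± 0.12) at the top and Ltbp2 (-0.74 ± 0.15), Ccn1 (-0.60 ± 0.11) and Spock2 (-0.44 ± 0.13) at the bottom. With the antibody 4 of 45 were higher and 30 lower, beside 27.2% and 28.0% of all genes, the median log2 change being -0.60. Fmod (1.11 ± 0.32), Vwa1 (1.00 ± 0.18) and Smoc1 (0.77 ± 0.25) rose most, and Cthrc1 (-2.39 ± 0.39), Ltbp2 (-2.12 ± 0.32) and Mfap2 (-1.78 ± 0.29) fell most. Smoc1 did not pass under upper-quartile scaling (adjusted p = 0.0515), without antibody library 2 or without IgG library 1 or 4.

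Receptors of these proteins were counted in a list of 20, of which 19 were tested. On adenine 11 were higher and 7 lower, beside 44.0% and 40.9% of all genes. Cd44, the hyaluronan receptor, was at 68.4 ± 8.27 CPM in wild-type adenine libraries and 2.98 ± 0.302 CPM on chow (4.52 ± 0.16), followed by the integrins Itgb4 (2.96 ± 0.10), which binds laminins of anchoring junctions, and Itga2 (2.45 ± 0.30). Itga8, whose product forms the integrin that binds nephronectin, was at 3.26 ± 0.691 CPM in wild-type adenine libraries and 28.2 ± 1.57 CPM on chow (-3.11 ± 0.12). Cd36, a receptor of thrombospondin, and Sdc4, a heparan sulfate proteoglycan of the cell surface, changed by -3.22 ± 0.070 and -1.02 ± 0.063. In libraries labelled knockout 5 were higher and 9 lower, beside 25.1% and 21.3% of all genes, Itga8 (1.37 ± 0.11), Lrp4, a receptor of agrin (0.67 ± 0.092), and Cd36 (0.38 ± 0.069) rising most and Cd44 (-0.51 ± 0.10), Itga5 (-0.35 ± 0.052) and Itga6 (-0.31 ± 0.053) falling most. Beside 27.2% higher and 28.0% lower of all genes, with the antibody 3 were higher, Cd36 (1.70 ± 0.18), Lrp4 (0.67 ± 0.084) and Sdc4 (0.27 ± 0.10), and 10 were lower, led by Itgb4 (-1.05 ± 0.23), Itga2 (-0.92 ± 0.20) and Itga5 (-0.92 ± 0.15). Sdc4 did not pass under upper-quartile scaling (adjusted p = 0.312), among other settings. Itga6 lost its call in libraries labelled knockout with protein-coding transcripts only (adjusted p = 0.0743).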

How the data were processed

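Total RNA of mouse kidney (400 ng per library) was sequenced from 24 stranded libraries, per the labels' protocols. The authors deposited Salmon quantifications per transcript, per the file headers, with estimated (expected) read counts and TPM. The submitters' processing notes name Salmon, FastQC, DESeq2 and the build GRCm39, with no versions. The expected counts were summed per gene by transcript ID with the GENCODE M21 annotation (GRCm38) and rounded to whole numbers, and deposited TPM values were summed likewise. Transcripts absent from that annotation held 0.450% to 0.570% of reads. Coordinates and sequences are those of GRCm38 and not of the authors' build. Estimated counts divide reads among similar transcripts, which can move values between near-identical sequences.

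Genes were filtered with filterByExpr, scaled by TMM and tested with the quasi-likelihood test of edgeR 4.0.16 (R 4.3.3), with Benjamini-Hochberg adjustment over all genes tested and a threshold of 0.05. The 3 groups of the knockout experiment were fitted together, the antibody experiment alone, and the difference of effects in the 20 adenine libraries. Transcript shares were tested with exact two-sided permutation tests. Alternatives were RLE and upper-quartile scaling, no filter, DESeq2 1.42.0, a transcript-length offset, the replicate number as a block and leaving out each library. Removal of GC and length trends, protein-coding transcripts only and adding the unannotated transcript to Lamb1 were chosen after seeing the data. The scripts were tested on simulated counts with known changes. No 2 libraries of a group agreed within counting noise. The members and lists were chosen with earlier results of these data known. All 33 members are named by role, and of the other lists the 3 genes with the largest rise and the 3 with the largest fall past the threshold.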

Additional observations from a re-analysis of the deposited data

Results flagged for a closer look

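Of 165 groups of member values tested, 8 had a library far from the others, and chance flags about 1 group in 20. Among libraries labelled knockout, library 2 was the lowest for Bgn (158 CPM) and Fbn1 (14.8 CPM), and library 5 the highest for Dcn (63.3 CPM). Wild-type adenine library 3 was the lowest for Nid2 (22.0 CPM) and Thbs2 (8.80 CPM). Chow library 3 was the highest for Nid2 (28.0 CPM) and Fn1 (54.6 CPM). IgG library 2 was the highest for Eln (3.35 CPM).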

How the results depend on the processing

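Over all alternatives, including each library left out, 13 to 17 members were higher and 10 to 15 lower on adenine against chow, 12 to 14 and 3 to 5 in libraries labelled knockout against wild type, 13 to 20 and 7 to 12 against chow, and 1 to 2 and 22 to 29 with the antibody. The difference of effects was positive for 21 to 27 and negative for 1. The counts that moved by more than 1.5 times were the 5 lower members in libraries labelled knockout with the transcript-length offset, and the 2 higher members with the antibody after removal of GC and length trends. In wild-type adenine against chow, the sign turned for Lamc1 (-0.11) with the transcript-length offset, for Lamc1 (-0.31), Hspg2 (-0.0057), Sparc (0.061), Frem1 (-0.034) with GC and length trends removed, for Nid2 (0.21), Sparc (0.082), Fbn1 (0.066) with upper-quartile scaling and for Nid2 (0.16) with protein-coding transcripts only. With each library left out in turn, the values spanned 0 for Nid2 (-0.026 to 0.056). In libraries labelled knockout against wild type, the sign turned for Lama4 (-0.061), Lamc1 (-0.056), Postn (-0.017), Lum (-0.026), Thbs2 (-0.053), Frem1 (-0.0012), Enpp1 (-0.017) with upper-quartile scaling, for Lama4 (-0.0077), Hspg2 (0.025) with GC and length trends removed, for Lama4 (-0.079), Lamc1 (-0.045), Eln (-0.0047), Lum (-0.018), Thbs2 (-0.037) with protein-coding transcripts only and for Lamb3 (-0.19), Lamc1 (-0.14), Hspg2 (0.050), Fn1 (-0.084), Postn (-0.012), Frem1 (-0.013) with the transcript-length offset. With each library left out in turn, the values spanned 0 for Lama4 (-0.068 to 0.059), Lamb1 (-0.29 to 0.052), Lamb2 (-0.044 to 0.014), Lamb3 (-0.060 to 0.32), Lamc1 (-0.013 to 0.027), Postn (-0.17 to 0.15), Fbln2 (-0.13 to 0.018), Lum (-0.063 to 0.13), Thbs2 (-0.064 to 0.053). In antibody against IgG, the sign turned for Lama1 (-0.020), Fras1 (-0.040) with upper-quartile scaling and for Lamb3 (0.29) with the transcript-length offset. The cause was not tested.

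Upper-quartile scaling moved the median log2 change of all genes from 0.07 to 0.30 for wild-type adenine against chow and from -0.04 to -0.19 for antibody against IgG. With it, 3485 genes were higher and 5072 lower in libraries labelled knockout against wild type, where the main scaling gave 4261 and 3612, and 2987 and 6616 with the antibody, where it gave 4467 and 4601. The difference of effects was positive for 4495 and negative for 2014 genes with it, where the main scaling gave 2788 and 3695. Removing GC and length trends gave 3458 higher and 4769 lower genes in libraries labelled knockout.

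Replicate numbers gave no sign of pairing between libraries labelled knockout and wild type, or between antibody and IgG. Deviations of same-numbered libraries from their group means correlated between -0.311 and 0.0751 for libraries labelled knockout and wild type, with 0 of 6 best with their own number, and between -0.228 and -0.108 for antibody and IgG, with 0 of 4. For wild-type adenine and chow they lay between -0.0211 and 0.131, with 3 of 4, so pairing was not excluded there. For libraries labelled knockout and chow they lay between -0.134 and 0.0908, with 1 of 4. With the replicate number as a block, 14 members were higher and 13 lower on adenine, 13 and 3 in libraries labelled knockout, and 1 and 23 with the antibody. Low members are limited by depth, and Eln, Lamc3, Fbln2, Lama2, Lama4, Lamb3, Postn, Fbln1, Lum, Vcan and Frem1 stood below 10 CPM in every library of the antibody experiment. The lowest antibody library held 17 reads of Lum and 34 of Postn.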
